A study of Daphnia magna with 84 samples.

Results

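Gene models of the water flea Daphnia magna that are built from 30 or more exons were followed through 84 single-animal RNA-seq libraries, by day and by concentration of a coal ash mixture in the diet. They were chosen by structure and depth alone: an ID beginning with APZ42, 30 or more exons in the deposited table, and at least 500 counts summed over all libraries. Of 27350 gene models, 76 with an APZ42 ID had 30 or more exons. 3 of these had fewer than 500 counts and 1 lay on a scaffold that was set aside (scaffold02581, scaffold01409 and scaffold03326 were not used), which left 72.

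The study exposed D. magna, a freshwater crustacean widely used in toxicity testing, by feeding green algae (C. reinhardtii) that had first been held in coal ash, and it sampled whole animals at days 6, 10, 17 and 24. The 6 exposed concentrations are 0.015 and 0.06, then 0.12 and 0.25, then 1 and 4 nM Hg/L. They are named by mercury, but per the labels they stand for the whole suite of coal ash constituents. A seventh group has concentration 0, and its samples carry the same treatment label, coal ash, as all the others. Each of the 28 groups of 1 day and 1 concentration holds 3 libraries, each from 1 animal. The clone, and the age of the animals other than the sampling day, are not given in the labels used here. The tissue label is whole organism, so the RNA of every organ, and of any eggs or embryos still carried, could enter a library. In whole-animal RNA, fewer cells of a type and less RNA per cell cannot be told apart. No ID in the table carries a gene name, so tissue markers could not be examined and the proteins encoded are not stated.

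As background, a gene with many exons is transcribed as a long precursor from which many introns are spliced out, and it commonly encodes a long protein. In RNA-seq the transcript is fragmented, so at an equal number of molecules a longer transcript gives more counts. Levels are therefore compared between models only per kilobase (kb) of exon. Daphnia grow through moults, mature within the first weeks and then carry broods in a chamber under the carapace, so sampling days also differ in size and reproductive state.

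Total counts in the 81 libraries used for tests lay between 11615188 and 27952023, but 5 very abundant models took most of them. Outside those 5, the libraries held 408047 to 2596374 counts, with a median of 1499769. Among exposed animals the median outside those models was 1928680 counts on day 6, and 1421350, 1358860 and 1371470 counts on days 10, 17 and 24. The 3 libraries of concentration 0 at day 24 held 121871, 25520 and 46138 such counts, of which 1507, 531 and 719 fell in the 72 models. They were kept out of the tests, so that concentration 0 was available at days 6, 10 and 17. In the libraries used, 4 nM Hg/L at day 6, replicate 2 (465099 counts outside the abundant models) and 0.12 nM Hg/L at day 24, replicate 3 (408047) were also shallow.

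The 72 models had 30 to 81 exons with a median of 37. There were 45 with 30 to 39 exons, 16 with 40 to 49 and 11 with 50 or more. Their summed exon length lay between 3086 and 38364 bases with a median of 11576, against a median of 2114 over all tested APZ42 models. From first to last exon they spanned 5433 to 70459 bases with a median of 16629, on 52 scaffolds. Introns were mostly short: the median over models of the median intron was 71.75 bases, close to the 73 bases of all tested models. Median exons were 174.75 bases in the 72 and 231 bases in all. Exons made up a median of 66.5% of the span in the 72 and 82.0% in all. These lengths follow in part from choosing by exon number.

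**Figure D1:**
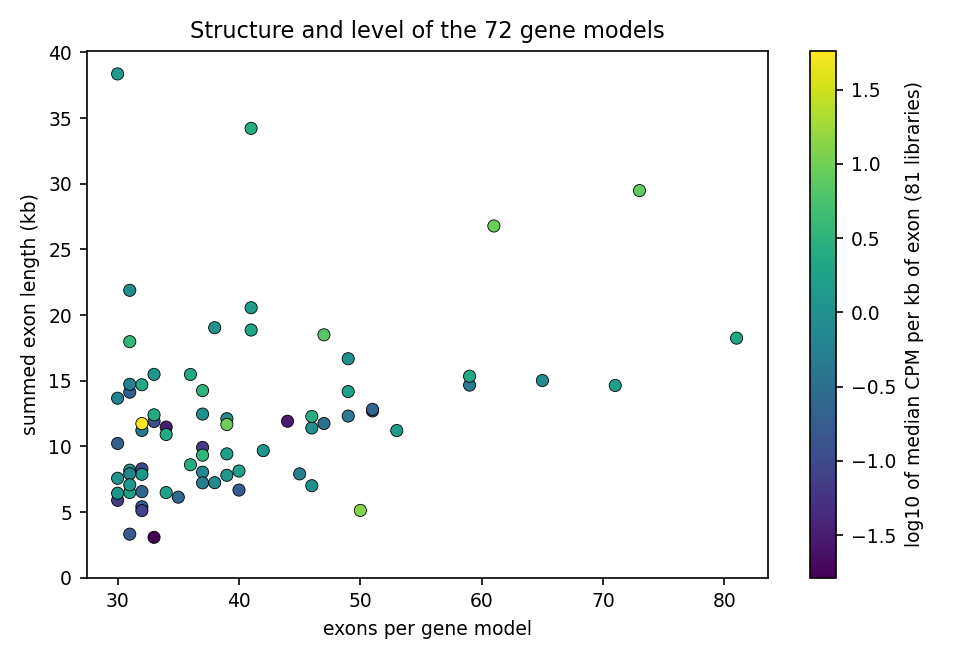
Each point is 1 of the 72 gene models, with its number of exons on the horizontal axis, its summed exon length in kb on the vertical axis, and its median level over 81 libraries as colour (log10 of CPM per kb). The model with the most exons (81) is not the longest, and the longest (38364 bases) has the minimum of 30 exons.

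APZ42_032292 (scaffold03102, 92587 to 120255, minus strand) had the most exons, 81. APZ42_020544 (scaffold01005, 405449 to 460963, minus strand) had 73 exons and 29484 bases of exon. APZ42_025304 (scaffold01865, 5576 to 25827, plus strand) followed with 71 exons. By contrast, the longest model, APZ42_025677 (scaffold01937, 47357 to 117815, minus strand), had 30 exons, 1 of which was 20588 bases long. APZ42_018311 (scaffold00781, 24071 to 79605, minus strand) had 41 exons and 34218 bases of exon. Long single exons and long chains of short exons are thus both present in the set, as the plot of exon number against length shows.

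Among the 72, exon sizes differed from model to model in a way that the choice by number did not use. An exon whose length is a multiple of 3 can be skipped or repeated without a shift in reading frame, and 8 of the 72 models had such lengths in over 60% of their inner exons. How many of all tested models passed 60% was not counted. The median share was 38.01% in the 72 and 33.3% in the 9863 tested APZ42 models with inner exons. In APZ42_024847 (scaffold01764, 125532 to 134375, minus strand) 95.8% of the inner exons were multiples of 3, and its 50 exons had a median length of 42 bases, the shortest median of the 72. In APZ42_017321 the share was 93.5% with a median exon of 63 bases, and in APZ42_018311 it was 89.7% with a median exon of 200 bases. The highest share of the 72, 96.6%, was that of APZ42_031917 (31 exons, median exon 87 bases), named after its values were seen. The exons were taken as the table gives them, and whether they are coding was not examined.

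The level of the 72 models, as median CPM per kb over 81 libraries (CPM are counts scaled to the TMM-adjusted library size), ran from 0.016 to 57.7. Their median was 1.09 CPM per kb, against 0.435 over all 12690 tested models. That comparison is affected by the minimum of 500 counts, which removes low models. Of the 72, 52 had a mean of at least 5 CPM, as did 1891 of all tested models. Among these better measured models the order turned, with a median of 1.47 CPM per kb in the 52 and 2.33 in the 1891. However, the limit of 5 CPM is not scaled by exon length, so long models pass it at a lower level per kb than short ones. Those medians therefore cannot rank the 52 against the 1891 by level.

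APZ42_030615 (scaffold02850, 617786 to 633617, minus strand, 32 exons) was the most abundant, at 57.7 CPM per kb. It took 31.4% of all counts of the 72, and the 5 most abundant models together took 59.0%. Next came APZ42_024847 at 13.05, APZ42_017757 (scaffold00705, 22166 to 71465, plus strand, 61 exons) at 9.36 and APZ42_014221 at 9.20 CPM per kb. At the low end stood APZ42_017321 (scaffold00687, 682226 to 687870, plus strand, 33 exons) at 0.016 and APZ42_021681 at 0.029 CPM per kb. At the count limit, APZ42_017321 with 581 counts was just inside, and APZ42_011668, with 48 exons and 347 counts, just outside. At the exon limit, 6 models had exactly 30 exons and 7 tested models had 29. The highest of each were APZ42_025677 at 1.397 and APZ42_031339 at 3.55 CPM per kb.

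Spread between the 3 animals of a group is the error behind every comparison. As an SD of log2 CPM within groups, its median was 0.39 in the 52 models with a mean of at least 5 CPM and 0.47 in the 1891. The 52 also had more counts per library, with a median of mean CPM of 19.2 against 9.55, not scaled by exon length. The part of count number in this difference of spread was not tested. APZ42_028233 (scaffold02385, 455285 to 472833, minus strand, 37 exons) was the steadiest of the 52, with an SD of 0.15, and its exposed animals lay between 34.9 and 58.5 CPM over all 4 days. APZ42_030473 was next with an SD of 0.17. The least steady were APZ42_030615 with an SD of 0.80 and APZ42_032292 with 0.74.

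Time was compared in exposed animals, 18 at each day, as the mean of the 6 exposed groups of one day against that of another. Between day 6 and day 10 most calls were rises. 35 of the 72 models were higher at day 10, which is 48.6%, against 23% of all tested models, and 6 were lower, which is 8.33%, against 20.1%. The median log2 change was 0.22 in the 72 and -0.01 in all. Calls rest on an adjusted p under 0.05 in edgeR's quasi-likelihood test over all 12690 models. In the 52 better measured models, 42.3% were higher and 11.5% lower, against 30.4% and 33.9% of the 1891, so the low share of falling models was also seen at matched minimum level.

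**Figure D2:**
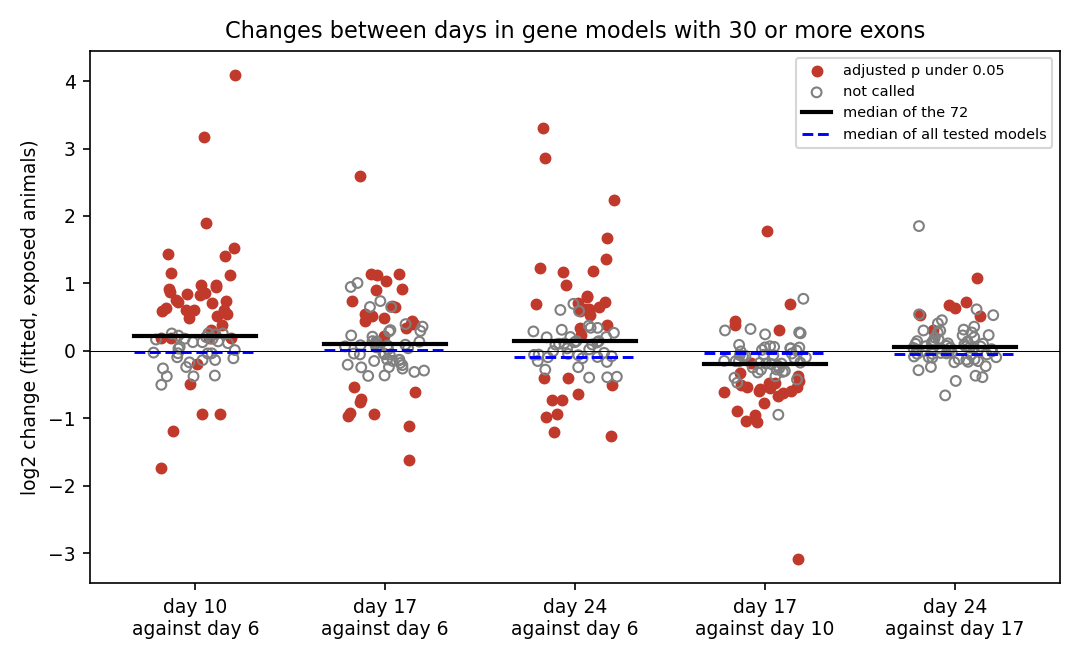
Fitted log2 change of each of the 72 models (points) in 5 comparisons of days in exposed animals. Filled points are called at an adjusted p under 0.05, the solid bar is the median of the 72, and the dashed bar the median of all tested models. At day 10 against day 6, 35 filled points lie above 0 and 6 below, and at day 17 against day 10 there are 5 above and 22 below.

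Fewer models were called at the later days. At day 17, 19 models were higher (26.4%, against 16.4% of all) and 9 lower (12.5%, against 16.2%). At day 24, 23 were higher (31.9%, against 18.4%) and 10 lower (13.9%, against 20.3%). At a mean of at least 5 CPM, 21.2% of the 52 models were higher at day 17 and 15.4% lower, against 23.8% and 32.7% of the 1891. At day 24 the shares were 30.8% and 17.3%, against 30.7% and 30.7%. At matched minimum level the share of rises was thus not above that of other models on these days, while the share of falls was below it. The median log2 change of the 72 was 0.10 at day 17 and 0.15 at day 24, where all tested models had 0.02 and -0.09. These comparisons share the day 6 animals, so their values are set side by side and not counted as separate support.

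Between day 10 and day 17 most calls were falls: 22 models were lower (30.6%, against 14.1% of all) and 5 higher (6.94%, against 10.1%). At a mean of at least 5 CPM, 34.6% of the 52 models were lower and 9.62% higher, against 24.4% and 13.5% of the 1891. This comparison uses the day 10 animals again. The 5 higher models were APZ42_030615, APZ42_019389, APZ42_021008, APZ42_033469 and APZ42_015651, of which the last 3 are named after their values were seen. Between day 17 and day 24 there were 7 higher models (9.72%, against 2.09%) and 0 lower (against 1.25%). In the 52 better measured models, 11.5% were higher and 0% lower, against 6.13% and 0.899% of the 1891. 18 of the 72 had an unadjusted p under 0.05 in that comparison. DESeq2 and limma-voom each called 7 and none lower. The count fell to 3 without 0.25 nM Hg/L at day 24, replicate 2, and to 4 without 4 nM Hg/L at day 17, replicate 2, or at day 24, replicate 3. Here and below, counts at an unadjusted p or under other tools are given without the share of all tested models. They therefore do not set the 72 apart from other models.

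Each model was also assigned the day at which its exposed median was highest. Day 10 was the peak for 34 of the 72 (47.2%, against 29.6% of all tested models), day 6 for 16, day 24 for 14 and day 17 for 8. The lowest median fell at day 6 in 36 models (50%, against 31.2%). This is a description without a test.

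From 5 to 9 exons upward, the shares called rose or fell with exon number. At day 10 against day 6, 19.1% of models with 5 to 9 exons were called higher, 24.3% of those with 10 to 19, 39.9% of those with 20 to 29, and 48.6% of the 72. The classes with fewer exons broke the order, at 21.3% with 2 to 4 exons and 33.0% with 1. The shares called lower were 22.3%, 20.03%, 13.2% and 8.33% in the same order of classes, 21.05% with 2 to 4 exons and 12.9% with 1. At day 17 against day 10, 13.4% of models with 5 to 9 exons were lower, 15.03% with 10 to 19, 18.99% with 20 to 29 and 30.6% of the 72. With 2 to 4 exons it was 12.98%, and with 1 exon 16.6%, which again broke the order. These shares are a description, and the part of level and length in them was not tested.

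**Figure D3:**
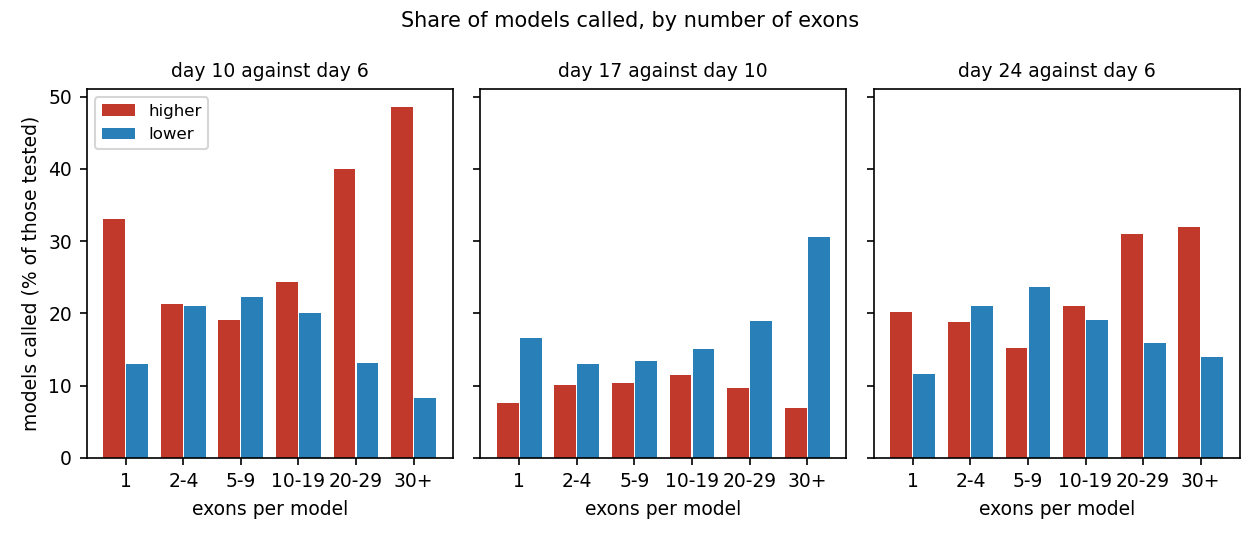
Bars give the percentage of tested models called higher or lower in 3 comparisons of days in exposed animals, by number of exons. The share called higher at day 10 against day 6 is 19.1% at 5 to 9 exons and 48.6% at 30 or more, and the share called lower at day 17 against day 10 is 13.4% and 30.6%.

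APZ42_024847, the model of 50 short exons, had the largest rise among models with a mean of at least 5 CPM. Exposed animals had 5.98 to 23.8 CPM at day 6 with a median of 10.04, 15.4 to 168.9 at day 10 (median 95.04), 18.3 to 147.6 at day 17 (median 63.7), and 26.4 to 220 at day 24 (median 94.9). 17 of the 18 animals of day 10, 17 of day 17 and all 18 of day 24 exceeded every animal of day 6. The log2 change from day 6 was 3.18 ± 0.20 (SE, adjusted p = 6.69e-20) at day 10, 2.59 ± 0.19 at day 17 and 3.31 ± 0.20 at day 24. Animals at concentration 0 had 9.64, 17.3 and 7.48 CPM at day 6 and 85.8, 72.3 and 74.7 CPM at day 10, and these lay within the ranges of the exposed animals on both days. From day 17 to day 24 it rose by a further 0.72 ± 0.18 (adjusted p = 0.0172), a call that was lost without 0.25 nM Hg/L at day 24, replicate 2 (0.62, adjusted p = 0.0563).

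APZ42_022323 (scaffold01361, 371830 to 412884, minus strand, 41 exons) was higher than day 6 at every later day. Its exposed medians were 16.8 CPM at day 6 (8.19 to 50.4), 36.1 at day 10 (19.3 to 128.8), 37.95 at day 17 (21.7 to 71.95) and 42.95 at day 24 (22.7 to 168.04). The ranges of day 6 and day 24 overlapped through 1 high animal of day 6. The log2 change at day 24 against day 6 was 1.68 ± 0.18 (adjusted p = 2.17e-11). APZ42_028737 (46 exons) had exposed medians of 20.4, 39.2, 43.5 and 56.1 CPM at days 6, 10, 17 and 24. It was called higher than day 6 at each later day, with a log2 change of 1.15 ± 0.22 at day 10 and 1.36 ± 0.22 at day 24. APZ42_025677, the longest model, rose less but with little spread: from 24.3 to 49.2 CPM at day 6 (median 38.7) to 41.4 to 90.1 at day 10 (median 60.5), a log2 change of 0.64 ± 0.08 (adjusted p = 1.95e-09).

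APZ42_019767 (scaffold00944, 216807 to 240570, minus strand, 37 exons) was high at day 10 and low again after it. Exposed animals had 6.08 to 12.6 CPM at day 6 (median 9.55), 4.16 to 50.6 at day 10 (median 26.7), 4.398 to 34.6 at day 17 (median 10.5) and 3.37 to 21.6 at day 24 (median 9.38). At day 10, 17 of 18 animals exceeded every animal of day 6 and 1 lay below them all. The log2 change was 1.44 ± 0.19 from day 6 to day 10 (adjusted p = 9.92e-09) and -1.04 ± 0.18 from day 10 to day 17 (adjusted p = 0.000162). APZ42_024105 (31 exons) fell after day 10 too, with medians of 115 CPM at day 10 and 43.6 at day 17 and a log2 change of -0.95 ± 0.18.

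APZ42_030615, the most abundant of the 72, took the opposite course. Its exposed animals had 351 to 1465 CPM at day 6 (median 942), 136.9 to 680 at day 10 (median 240.0), 142 to 3952 at day 17 (median 908) and 409 to 3860 at day 24 (median 707). 13 of 18 animals of day 10 lay below every animal of day 6, and the animals of day 17 were spread over the ranges of both. The log2 change was -1.74 ± 0.26 from day 6 to day 10 (adjusted p = 2.21e-07) and 1.78 ± 0.26 from day 10 to day 17 (adjusted p = 1.01e-05). Animals at concentration 0 had 923, 954 and 946 CPM at day 6, 223, 350 and 108.4 at day 10, and 941, 353 and 881 at day 17. APZ42_019389 (46 exons) had the same shape at a lower level, with medians of 8.75, 4.002 and 7.03 CPM at days 6, 10 and 17, a log2 change of -0.93 ± 0.15 and then of 0.69 ± 0.15.

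APZ42_012836 (scaffold00190, 279866 to 297784, minus strand, 49 exons) was highest at day 6 and fell. Exposed animals had 28.8 to 77.9 CPM at day 6 (median 54.01), 15.1 to 38.3 at day 10 (median 22.9), 7.19 to 48.7 at day 17 (median 16.8) and 10.7 to 61.2 at day 24 (median 19.99). Of 18 animals, 14 at day 10 and 17 at day 17 lay below every animal of day 6. The log2 change from day 6 was -1.19 ± 0.17 at day 10 (adjusted p = 1.57e-07), -1.61 ± 0.18 at day 17 and -1.21 ± 0.17 at day 24. At concentration 0 its levels were 47.8, 76.99 and 56.2 CPM at day 6 and 21.1, 27.3 and 26.2 at day 10.

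APZ42_017757 (61 exons) and APZ42_032292 (81 exons) fell later. APZ42_017757 had exposed medians of 405, 283, 195 and 154 CPM at days 6, 10, 17 and 24, and a log2 change of -0.96 ± 0.21 at day 17 against day 6 (adjusted p = 0.000171). Its ranges overlapped widely: 205 to 464 CPM at day 6 and 44.7 to 358 at day 17. APZ42_032292 had medians of 51.9, 48.9, 29.95 and 20.9 CPM, and changed by -0.98 ± 0.23 at day 24 against day 6 (adjusted p = 0.000342). After subtraction of group means, the log2 levels of these models moved together over 81 libraries: Pearson's r was 0.947 between them and 0.976 between APZ42_017757 and APZ42_026439. These points share library depth and scaling, and over all pairs of the 52 better measured models the median r was 0.03.

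**Figure D4:**
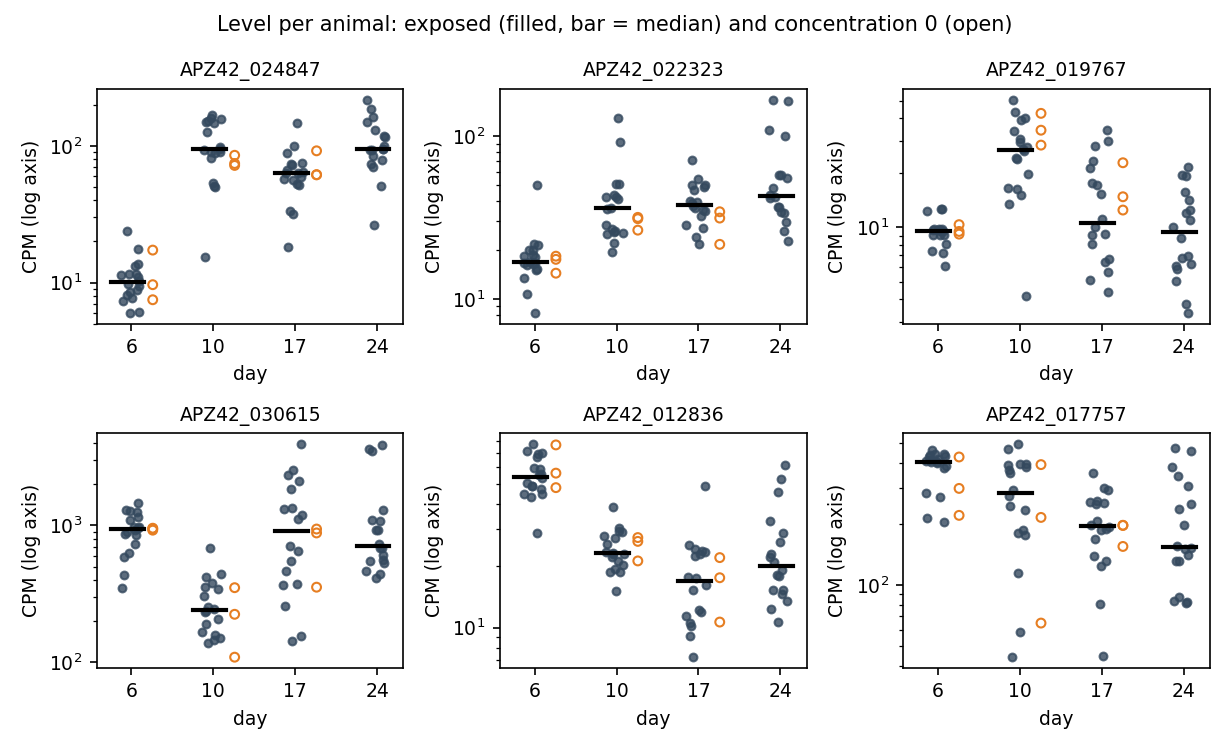
CPM of 6 models in single animals (log axis) by day, with exposed animals as filled points (18 a day), their median as a bar, and animals at concentration 0 as open circles (3 a day, none shown at day 24). APZ42_024847 rises from a median of 10.04 to 95.04 CPM between days 6 and 10, and APZ42_030615 falls from 942 to 240.0 CPM.

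The summed level of the 72 was weighted by its most abundant model. As a share of counts outside the 5 very abundant models, the sum had exposed medians of 3.34%, 3.29%, 3.86% and 3.44% on days 6, 10, 17 and 24. Without APZ42_030615 the medians were 2.18%, 2.89%, 2.36% and 2.38%, highest at day 10. The log2 ratio of the means at day 10 over day 6 was 0.10 with all 72 and 0.50 without APZ42_030615. On the CPM scale with all 72 it was -0.18, so the sum as a whole has no direction that holds on both scales. The ratio without APZ42_030615 was computed on the share scale only, so its size on the CPM scale is not given. The lowest share of any exposed animal, 1.26%, was that of the shallow library of 4 nM Hg/L at day 6.

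Concentration was compared next. At 4 nM Hg/L against 0, averaged over days 6, 10 and 17, 0 models were called (against 0.402% of all tested models higher and 0.158% lower). 9 of the 72 had an unadjusted p under 0.05, DESeq2 called 1 and limma-voom 3. Leaving out 4 nM Hg/L at day 17, replicate 1, gave 1 call, and at day 6, replicate 3, gave 2. The median log2 difference was -0.00 in the 72 and -0.05 in all, with single values from -0.50 to 1.75. The 1.75 belongs to APZ42_017321, which had no counts in several groups, so that its fitted values are not sizes.

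In a further contrast of the same fit, 1 nM Hg/L against 0 over these days, 1 of the 72 was higher (1.39%, against 1.13% of all) and 0 were lower (against 0.268%), with 17 of the 72 at an unadjusted p under 0.05. That share is near the background. The model was APZ42_012707 (36 exons), named after its values were seen, with a log2 difference of 0.98 ± 0.27 (adjusted p = 0.0493). Its 3 animals at 1 nM Hg/L had 33.7, 21.4 and 19.5 CPM at day 17, above those at 0 with 9.004, 8.75 and 11.9 CPM. The groups overlapped at day 6, with 22.4, 25.2 and 23.5 against 18.96, 31.99 and 18.6 CPM, and at day 10, with 75.1, 22.9 and 52.9 against 15.3, 3.68 and 31.3 CPM. This contrast was not repeated with DESeq2, limma-voom or the other settings.

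A slope of log2 level on the rank of concentration (0 to 6), averaged over days 6, 10 and 17, was called in 5 of the 72. 1 rose (1.39%, against 2.72% of all) and 4 fell (5.56%, against 2.03%). Counts of 1 and 4 models are too few to set apart from these shares. The 5 calls were APZ42_032686, which rose, and APZ42_018088, APZ42_032772, APZ42_029819 and APZ42_016750, which fell (APZ42_032772 and, for its slope, APZ42_018088 are named after their values were seen). The count was 2 or 3 without any one of 7 libraries: concentration 0 at day 6, replicate 1, and at days 10 and 17, replicate 2, 0.015 nM Hg/L at days 6 and 10, replicate 2, and 4 nM Hg/L at day 6, replicate 2, and day 10, replicate 3. It was 9 without concentration 0 at day 10, replicate 3, and 12 without 0.015 nM Hg/L at day 10, replicate 3.

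APZ42_032686 (scaffold03124, 1073034 to 1103560, minus strand, 59 exons) rose with concentration. Over days 6, 10 and 17, the 9 animals at concentration 0 had 14.2 to 39.4 CPM (median 22.02), those at 0.015 had 7.11 to 46.8 (median 22.6), those at 0.06 had 7.52 to 47.6 (median 29.5) and those at 0.12 had 9.46 to 48.7 (median 22.8). The 9 animals at 0.25 had 31.1 to 53.9 CPM (median 46.5), those at 1 had 24.9 to 85.3 (median 40.8) and those at 4 had 25.02 to 75.3 (median 42.3). The 3 highest concentrations lay above the lower ones in their medians, with overlapping ranges, and their own medians did not follow the order of concentration. The slope was 0.18 ± 0.04 log2 units per rank (adjusted p = 0.00592), and it was called in every alternative run and without each library in turn. The span of this model is overlapped by 4 other models, 1 of them on the same strand, so its counts may be partly shared. At day 6 the 4 nM Hg/L animals, at 75.3, 69.3 and 51.8 CPM, were above those at 0, at 14.2, 24.5 and 35.5 CPM, and the animal at 69.3 CPM is the shallow library. At day 10, where they had 25.02, 35.2 and 42.3 CPM against 21.3, 15.98 and 39.4, the groups overlapped.

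APZ42_018088 (scaffold00745, 123736 to 144420, plus strand, 65 exons) fell by a small amount, which was uneven over days. Its means at 0 and 4 nM Hg/L were 12.8 and 12.1 CPM at day 6, 16.8 and 11.2 at day 10, and 12.7 and 10.9 at day 17. Its medians over the 9 animals of days 6, 10 and 17 were 14.3 CPM at 0, 14.02 at 0.015, 13.04 at 0.06, 12.9 at 0.12, 12.6 at 0.25, 11.6 at 1 and 11.4 at 4 nM Hg/L. The slope was -0.06 ± 0.01 log2 units per rank (adjusted p = 0.0125). APZ42_032772 had a slope of -0.05 ± 0.02 and medians of 10.5 CPM at 0 and 7.59 at 4 nM Hg/L. For both the single animals overlapped across concentrations, as 9.63 to 20.7 CPM at 0 and 9.47 to 12.6 at 4 for APZ42_018088. Results of the alternatives are not given singly for these slopes. With no filter, the older edgeR fit or all 84 libraries fewer slopes were called, and these calls were not both kept.

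APZ42_016750 (31 exons) and APZ42_029819 (30 exons) had slopes close to the limit. APZ42_016750 had a slope of -0.08 ± 0.03 (adjusted p = 0.0455), with 8.31 to 21.6 CPM at 0 (median 10.5) and 5.32 to 12.3 at 4 nM Hg/L (median 8.95). APZ42_029819 had a slope of -0.07 ± 0.02 (adjusted p = 0.035), with medians of 9.84 CPM at 0 and 8.13 at 4 nM Hg/L. Both calls were lost under 5 of 10 alternatives each, and leaving out 1 library lost them in 23 and 6 of 54 fits. Adjusted p-values reached 0.14 and 0.296.

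**Figure D5:**
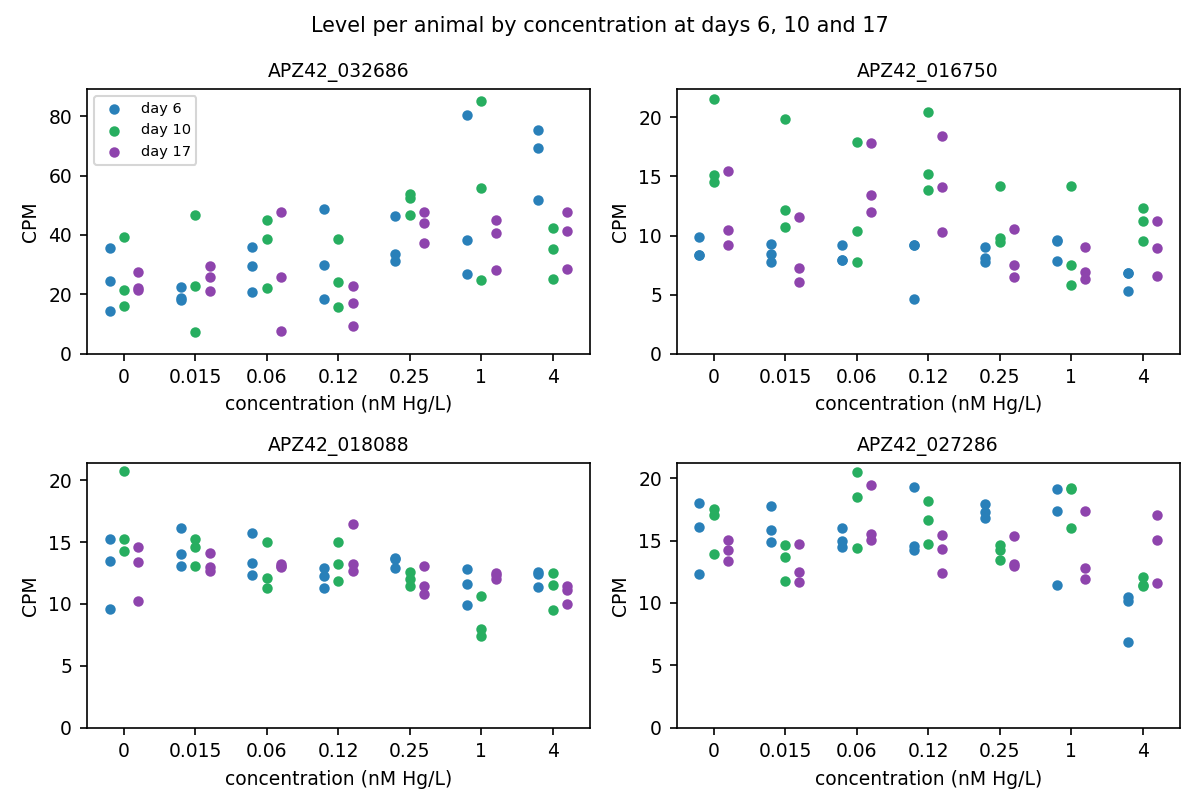
CPM of 4 models in single animals against concentration (nM Hg/L, shown as ordered classes), with days 6, 10 and 17 in colour and 3 animals in each group. APZ42_032686 has its 3 highest medians at 0.25, 1 and 4 nM Hg/L, APZ42_018088 falls from a median of 14.3 to 11.4 CPM, and APZ42_027286 is low at 4 nM Hg/L on day 6.

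Any difference among the concentrations of one day was tested jointly. At day 6, 2 of the 72 were called (2.78%, against 3.72% of all), which is no more than the background. At day 10 there were 11 (15.3%, against 7.85%), at day 17 also 11 (15.3%, against 6.75%), and at day 24, among the 6 exposed groups, 14 (19.4%, against 12.7%). The 72 and all tested models differ in level, and the part of level in these shares was not tested. The day 10 count rested on few animals: it was 0 without 1 nM Hg/L at day 10, replicate 1, 3 without replicate 3 of that group, and 5 to 7 without 0.25 nM Hg/L replicate 1, concentration 0 replicate 2, 0.015 nM Hg/L replicate 1 or 2, or 0.06 nM Hg/L replicate 2 of that day. The day 17 count was 6 or 7 without 4 nM Hg/L replicate 3, 0.015 nM Hg/L replicate 1 or 2, 0.06 nM Hg/L replicate 2 or 3, or 0.12 nM Hg/L replicate 3. The day 24 count was 5 without the shallow 0.12 nM Hg/L replicate 3 and 0 with the share of counts outside the abundant models as a covariate.

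At day 6 the called models were APZ42_027286 and APZ42_017321. APZ42_027286 (scaffold02190, 1140786 to 1171432, plus strand, 39 exons) had 10.2, 6.85 and 10.5 CPM at 4 nM Hg/L, below all 18 other animals of that day, whose lowest was 11.4 CPM. The joint adjusted p was 0.0273. The animal at 6.85 CPM is the shallow library, and the call was lost without it or without replicate 1 of the group. It was also lost under 6 of 8 other settings (DESeq2's size factors, no filter, the older edgeR fit, all 84 libraries, shallow libraries left out, and the covariate), with adjusted p-values up to 0.588. In the contrast of 4 nM Hg/L with 0 at day 6 alone, APZ42_027286 was 1 of the 72 called lower (1.39%, against 0.741% of all), at -0.74 ± 0.19 (adjusted p = 0.0202), and 0 were called higher (against 1.8%). 17 of the 72 had an unadjusted p under 0.05 there, and other settings were not run. For APZ42_017321, named after its values were seen, 1 animal at 0.015 nM Hg/L had 1.47 CPM and no other animal of day 6 had over 0.127, and without that animal the count was 1.

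At day 10 the lowest p-values belonged to APZ42_028737 and APZ42_018088. APZ42_028737 had 192, 39.4 and 167 CPM at 1 nM Hg/L, against 34.3, 14.8 and 43.8 at 0 and 23.2, 24.0 and 36.2 at 4 nM Hg/L. 2 of the 3 animals at 1 nM Hg/L were above every other animal of that day, and the third was among them. The adjusted p was 0.00259, and it was 0.103 without replicate 1 of that group. APZ42_018088 had 7.44, 10.7 and 8.01 CPM at 1 nM Hg/L, and 14.3, 20.7 and 15.3 CPM at 0 (adjusted p = 0.0127), and the groups did not overlap. That call was lost without replicate 1 or 3 at 1 nM Hg/L or replicate 2 at 0, with adjusted p-values up to 0.0827.

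At day 17, APZ42_019767 and APZ42_030615 differed among concentrations with no order by dose. APZ42_019767 had 4.398, 5.15 and 6.64 CPM at 0.015 nM Hg/L, 23.2, 34.6 and 28.1 at 0.06, 17.1, 17.6 and 21.1 at 0.12, and 9.23, 6.42 and 8.08 at 0.25 (adjusted p = 0.00257). It had 14.7, 22.7 and 12.4 CPM at 0, 11.1, 9.99 and 5.63 at 1, and 9.08, 15.3 and 29.9 at 4 nM Hg/L. The groups at 0.015, 0.06 and 0.12 did not overlap with one another. Each of them did overlap with a group at 0, 0.25, 1 or 4. APZ42_030615 ran the other way from 0.015 to 0.25 nM Hg/L, with 2534, 3952 and 1322 CPM at 0.015, 549, 142 and 373 at 0.06, 653, 365 and 257 at 0.12, and 2321, 702 and 2123 at 0.25 (adjusted p = 0.00505). Both calls were kept under every alternative and without each library in turn.

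At day 24, APZ42_033871 and APZ42_018033 had the lowest p-values. APZ42_033871 (scaffold03276, 243624 to 255487, plus strand, 40 exons) had 5.75, 7.49 and 10.8 CPM at 0.12 nM Hg/L and 17.3, 17.3 and 18.8 CPM at 4 nM Hg/L (adjusted p = 0.000133). The 12 animals of the other exposed concentrations lay between 12.5 and 17.8 CPM, above all animals at 0.12. APZ42_018033 had 9.41, 9.56 and 4.56 CPM at 0.12 nM Hg/L and 23.5, 13.1 and 18.6 at 4 nM Hg/L (adjusted p = 0.0014). The 3 animals at 0.12 nM Hg/L were the shallowest exposed animals of the day, with 546326, 601797 and 408047 counts outside the abundant models, against 1758795, 2005069 and 1457897 at 4 nM Hg/L. With the share of such counts as a covariate, adjusted p was 0.0861 for APZ42_033871 and 0.058 for APZ42_018033. Depth and concentration cannot be told apart in these groups.

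A slope on rank among the exposed animals of day 24 was called in 3 models, all rising (4.17%, against 0.394% of all), and in 0 falling (against 0.158%). At a mean of at least 5 CPM, 5.77% of the 52 models rose, against 0.899% of the 1891. Of the 258 models with 20 to 29 exons, 0 were called. A count of 3 models is small, and it was not tested against these shares. 14 of the 72 had an unadjusted p under 0.05, and DESeq2 called 5 and limma-voom 0. The models were APZ42_022323 with a slope of 0.31 ± 0.07 log2 units per rank (adjusted p = 0.0305), APZ42_018129 with 0.22 ± 0.05 (adjusted p = 0.0248) and APZ42_018033 with 0.16 ± 0.04 (adjusted p = 0.0376). APZ42_022323 had 36.5, 34.2 and 36.9 CPM at 0.015 nM Hg/L and 165.5, 48.3 and 58.2 CPM at 4 nM Hg/L, and APZ42_018129 had 7.53, 9.25 and 15.3 CPM against 20.9, 14.9 and 25.5. The 4 nM Hg/L animals of APZ42_022323 were all above those at 0.015, and those of APZ42_018129 overlapped with them. The count was 0 with the share outside the abundant models as a covariate. It was 0 or 1 without any one of 9 libraries of that day (all 3 of 0.015 nM Hg/L, replicates 2 and 3 of 0.06, replicate 2 of 0.25, replicate 3 of 1, and replicates 1 and 3 of 4 nM Hg/L), and 5 without replicate 1 of 0.06 or replicate 2 of 1 nM Hg/L.

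Whether the slope on exposed concentration differed between the 4 days was tested jointly, and 4 of the 72 were called (5.56%, against 2.78% of all). APZ42_018391 (scaffold00781, 512538 to 535266, minus strand, 38 exons) had slopes of 0.31, -0.13, 0.10 and -0.18 at days 6, 10, 17 and 24 (adjusted p = 0.00756). Its levels at 0.015 and 4 nM Hg/L were 14.7, 12.3 and 13.8 against 45.7, 65.5 and 26.2 CPM at day 6, where the animal at 65.5 CPM is the shallow library. At day 24 they were 10.96, 21.5 and 15.4 against 10.9, 9.65 and 8.29 CPM, so the order of the groups turned between these days. The day 6 animal at 45.7 CPM also had few counts outside the abundant models, 760586 against 1940755 in the animal at 26.2 CPM. At 1 nM Hg/L on day 6, replicate 3 had 46.8 CPM and a share of such counts of 3.97%. The others had 19.7 and 23.0 CPM, with shares of 9.47% and 9.14%. The part of depth in these day 6 values was not tested separately. APZ42_018129 had slopes of -0.08, 0.17, 0.01 and 0.22 at days 6, 10, 17 and 24 (adjusted p = 0.0186). The count was 1 or 2 without any one of 12 libraries and 7 without 1 nM Hg/L at day 24, replicate 2, or 0.015 nM Hg/L at day 10, replicate 1. With the share of counts outside the abundant models as a covariate it was 0.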

How the data were processed

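The authors deposited 1 table of raw whole-number counts, with 1 row per gene model and 1 column per library. Per the file headers it also gives the exons of each model and, as another column, their summed bases. Per the labels' protocols, ribosomal RNA was depleted and strand was kept in library preparation. The submitters' processing notes name STAR 2.7.5b. How reads were counted, with which strand setting, and against which genome build and annotation is not given in the sources used here. Coordinates are 1-based positions on the table's own scaffolds. Of the 72 models, 31 are overlapped by another model, 14 of them on the same strand, and such models can share counts. APZ42_032686, APZ42_018088 and APZ42_029819, whose slopes on concentration rank were called, are among those overlapped on the same strand. The reference gene table at hand (assembly ASM2063170v1.1) paired 0 of the IDs with a name, so no gene list by pathway could be formed and no sequence is given. All sample columns were matched to samples, with 0 left over. Replicates were numbered in accession order and pair nothing.

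In R 4.3.3 with edgeR 4.0.16, models were filtered with filterByExpr over 27 groups (minimum count 10), which left 12690 with all 72 members, and scaled by TMM (trimmed mean of M-values). 1 mean per group was fitted to 81 libraries by robust quasi-likelihood, with 54 residual degrees of freedom. Contrasts were tested with Benjamini-Hochberg adjustment over all 12690 models, and an adjusted p under 0.05 was called. The printed adjusted p-values come from this test. Log2 changes are fitted contrasts, each SE derives from the change and its F statistic, and CPM uses the TMM-scaled library size. P-values measure the spread between single animals, and counting error adds to it at low depth. The steps were tested on simulated data.

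Named models are the 2 highest and 2 lowest called models of each contrast and the 2 of lowest p in each joint test, with a mean of at least 5 CPM, plus the extremes of structure, level and spread. The members, comparisons and rules were chosen with earlier results of these data known. Alternatives were DESeq2 1.42.0 and its size factors, limma-voom (limma 3.58.1), no filter, the older edgeR fit, all 84 libraries, leaving out libraries under 500000 counts outside the 5 most abundant models, removing those models, their share as a covariate, concentration as the score, and leaving out each library. Replicate 3 of 0.06 nM Hg/L at day 24, whose title number lies among those of another group, and 2 libraries at 0.12 nM Hg/L whose titles share a number were kept as labelled.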

Additional observations from a re-analysis of the deposited data

Results flagged for a closer look

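In 4 of the 72 models the slope of log2 level on the rank of exposed concentration differed between days 6, 10, 17 and 24 in the joint test of that difference. APZ42_018391 had an adjusted p of 0.00756, with slopes of 0.31 ± 0.07 at day 6 and -0.18 ± 0.07 at day 24. APZ42_018129 had an adjusted p of 0.0186, with slopes of -0.08 ± 0.05 at day 6, 0.17 ± 0.05 at day 10 and 0.22 ± 0.05 at day 24. For APZ42_020440 (31 exons) the adjusted p was 0.0379, with slopes of -0.14, 0.11, 0.06 and 0.14 at days 6, 10, 17 and 24. For APZ42_033871 it was 0.0479, with slopes of -0.07, 0.05, 0.02 and 0.10. The last 3 have their lowest slope at day 6, where 4 nM Hg/L, replicate 2, was a shallow library, with 2.57 CPM for APZ42_018129 and 7.70 CPM for APZ42_033871, the lowest of that day in each. The same library held the highest value of day 6 for APZ42_018391, 65.5 CPM. Without that library the count of such models was 1, and the model kept was APZ42_018391. Its call was kept without each library in turn, with adjusted p up to 0.0454. With the share of counts outside the abundant models as a covariate the count was 0. The adjusted p of APZ42_018391 was then 0.461 and that of APZ42_018129 0.376.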

How the results depend on the processing

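The counts of called models kept within 1.5 times their value under every alternative for days 10, 17 and 24 against day 6 and for day 17 against day 10. Without each library in turn these were 36 to 41, 25 to 34, 31 to 36 and 20 to 30. Day 24 against day 17 (7) gave 4 with no filter, the older edgeR fit, shallow libraries left out, or the covariate, and 3 to 9 without single libraries. The 4 nM Hg/L comparison (0) gave 1 with DESeq2, 3 with voom, and 0 to 2. The slope (5) gave 2 with no filter, the older fit or all 84 libraries, 3 with the covariate, 8 with DESeq2, 11 with voom, and 2 to 12. Differences at day 6 (2) gave 1 with no filter, the older fit, all 84, shallow libraries left out or the covariate, 6 with voom, and 1 to 3. Day 10 (11) gave 6 with no filter or the older fit, 31 with voom, and 0 to 15. Day 17 (11) gave 7 with the older fit or all 84, 32 with voom, and 6 to 14. Day 24 (14) gave 9 with no filter, 5 without shallow libraries, 0 with the covariate, and 5 to 18. The slope at day 24 (3) gave 5 with DESeq2, 0 with voom or the covariate, 1 with the older fit or all 84, and 0 to 5. The slope differing between days (4) gave 2 with no filter, the older fit or all 84, 1 without shallow libraries, 0 with the covariate, and 1 to 7. The log2 ratio of the summed share, 0.10, was 0.50 without APZ42_030615, an alternative chosen after seeing the data. The causes were not tested. No value changed direction among called results. Of 284 values for 32 results on single models, 251 kept their side of the limit and 33 did not, and of 1131 without 1 library, 1062 did and 69 did not. DESeq2 was not run for the joint tests. No paired analysis was possible because the replicate numbers come from accession order. Shallow libraries limit the comparisons at 4 nM Hg/L on day 6 and at 0.12 nM Hg/L on day 24.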

Other observations

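Apart from the shared day pattern, a few of the 72 models moved together from animal to animal. After group means were subtracted, log2 CPM over 81 libraries correlated with r = 0.976 between APZ42_017757 and APZ42_026439, 0.947 between APZ42_017757 and APZ42_032292, and 0.91 between APZ42_017757 and APZ42_028074. These 4 models lie on 4 different scaffolds (scaffold00705, scaffold02076, scaffold03102 and scaffold02372). APZ42_012707 and APZ42_015074 had r = 0.852. The most negative pair was APZ42_016793 and APZ42_033469 with r = -0.718. Of 1326 pairs among the 52 models with a mean of at least 5 CPM, 6.79% had r over 0.5, against 6.52% of pairs among all 1891 such models. An r over 0.5 was thus about as common among all such models, which include the 52. Shares at an r as high as in the pairs named were not computed. All points share library depth and scaling, and no test was made.

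APZ42_017321, the lowest of the 72, was near 0 in most animals and higher in small groups of them. All 3 animals at 4 nM Hg/L on day 17 had 1.53, 1.84 and 2.13 CPM, while the other 18 animals of that day had at most 0.224. On day 10, animals at 0.06 nM Hg/L had 1.02, 1.12 and 2.35 CPM and those at 0.015 nM Hg/L had 0, 0.0312 and 0. It had no counts in 4 whole groups of 3 animals.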
